A study of Rattus norvegicus with 8 samples.

Results

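The SKI and SKOR corepressor family was examined in the rat *substantia nigra* (SN), with 7 genes listed: *Skor1*, *Skor2*, *Ski*, *Skil*, *Dach1*, *Dach2* and *Lbx1*. *Skor1* was taken through 1 named probe of the array, and the other genes through every probe, controls apart, whose RefSeq accession is paired with their symbol in a table of the rat assembly GRCr8. This found 2 probes of 45598 on the array, A_64_P017791 for *Skor1* and A_64_P009892 for *Lbx1*. No probe was paired in this way with *Skor2*, *Ski*, *Skil*, *Dach1* or *Dach2*, and these 5 genes were not analysed here. The accession that the *Skor1* probe carries (XM_006226425) is not in that table either. Its name comes from the choice of the probe, which was made with the result known, so each test on it is a test of the probe.

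Adult female Sprague Dawley rats, 3 months old at surgery, received 1 intranigral injection, on 1 side of the brain, of an adeno-associated virus of serotype AAV6. The AAV-αSyn vector carried wild-type human α-synuclein and was given at 5.2e+10 vector genomes per µL, and the AAV-Null control vector was given at 5.3e+09, so that vector load and transgene cannot be told apart. The promoter that drives the transgene is not given in the sources used here. RNA of the SN on the injected side, taken 20 weeks after surgery, was labelled with Cy3 and read on 8 one-colour Agilent arrays, 4 per group, where the methods speak of 3 biological replicates per group. Whether the replicates of the methods and the labels are the same animals is not given in the sources used here, so p-values measure the spread between these samples.

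SKI, its relative SKIL (also known as SnoN) and the SKOR proteins are nuclear corepressors that reach their genes through other DNA-binding proteins. They bind SMAD proteins, the transducers of TGFβ and bone morphogenetic protein (BMP) signals, and bring histone deacetylase complexes to SMAD target genes. DACH proteins share the SKI homology domain and work with EYA proteins and homeodomain proteins of the sine oculis family, and LBX1 is a homeodomain protein of dorsal hindbrain and spinal neurons with which SKOR1 acts as a corepressor.

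The stretches before the transcription starts of the 2 genes with a probe are shown because they are the regulatory sequence of the members measured. Each is 250 bases from RefSeq on assembly GRCr8, on the minus strand and 5′ to 3′, with every CG in capitals. For *Skor1* it is the first of the starts in that table (chr8:72505128-72505377), and for *Lbx1* the only one (chr1:254034827-254035076).
Skor1: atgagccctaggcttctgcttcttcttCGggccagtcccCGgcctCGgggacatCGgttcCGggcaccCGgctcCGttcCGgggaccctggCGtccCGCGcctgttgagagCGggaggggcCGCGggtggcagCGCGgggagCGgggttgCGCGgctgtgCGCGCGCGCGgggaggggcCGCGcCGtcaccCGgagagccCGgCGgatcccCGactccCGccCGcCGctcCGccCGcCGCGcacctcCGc
Lbx1: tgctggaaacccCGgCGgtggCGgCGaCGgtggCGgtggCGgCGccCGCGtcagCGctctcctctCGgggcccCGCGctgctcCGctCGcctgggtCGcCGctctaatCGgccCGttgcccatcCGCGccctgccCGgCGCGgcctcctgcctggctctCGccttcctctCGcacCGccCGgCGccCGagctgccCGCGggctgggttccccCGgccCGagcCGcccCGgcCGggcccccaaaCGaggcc
Both windows hold 39 CG, more than 98.6% of the 33469 rat promoter windows of the same length, whose median is 5. The GC content is 78.4% before *Skor1* and 80% before *Lbx1*, against a median of 51.2% over all windows. Besides CG, 4 short motifs were searched on both strands, and the first of them overlaps CG by its letters. This is GGCGCC, which BMP-responsive SMADs can bind, with 0 matches before *Skor1* and 2 before *Lbx1*, and 8.69% of all windows hold it. TAAT, the core that many homeodomains bind, has 0 matches before *Skor1* and 1 before *Lbx1*, and 57% of all windows hold it. GTCT, the short SMAD motif, and TATAAA have 0 matches in both windows and lie in 84% and 12.9% of all windows. A second *Skor1* start (chr8:72503202-72503451 before it) holds 15 CG and none of the other motifs.

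*Skor1* was at background on every AAV-Null array and well above background on every AAV-αSyn array. Each array carries 1 spot of its probe. In the scanner's arbitrary units, the median pixel intensity of that spot read 33, 38, 30.5 and 38 in the controls (AAV-Null replicates 1 to 4). With AAV-αSyn it read 72.5, 58.5, 86 and 66, in the order of the replicates, which is kept below. The local background around the spot lay between 27 and 30.5 on all 8 arrays, so the AAV-Null spots were barely brighter than the glass beside them, and the dimmest AAV-αSyn spot was brighter than the brightest AAV-Null spot. After subtraction of that local background the spot averaged 41.9 ± 11.4 (SD, n = 4 arrays) with AAV-αSyn and 6.13 ± 3.38 (SD, n = 4) with AAV-Null. No ratio of these is given, since the AAV-Null spots were not well above background.

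**Figure D1:**
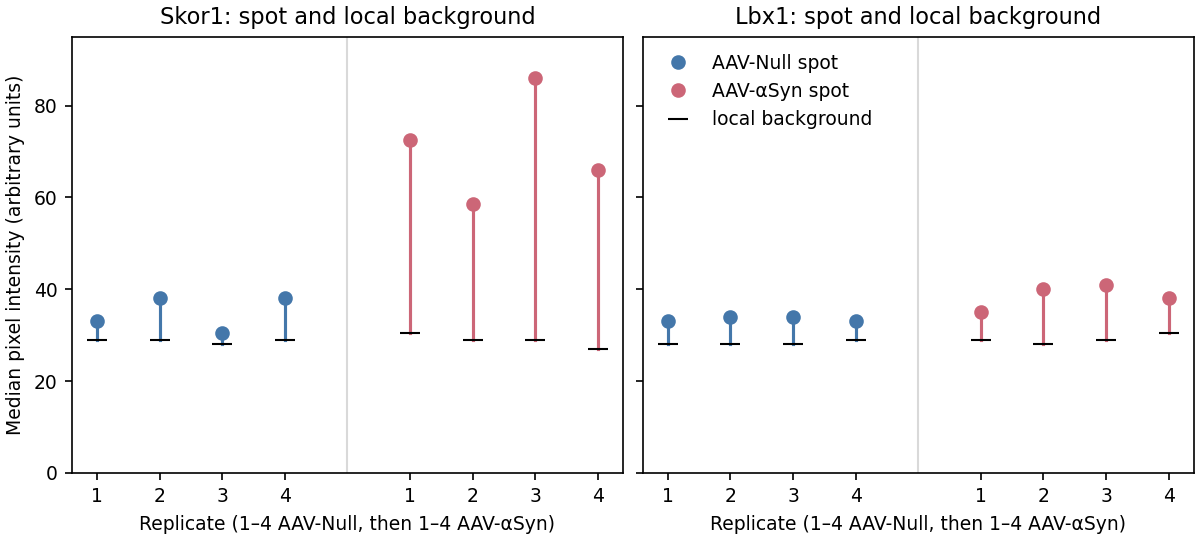
Median pixel intensity of the *Skor1* spot (left) and the *Lbx1* spot (right) on each array, in arbitrary scanner units, with the local background as a short line and the groups in colour. The *Skor1* spot reached 58.5 to 86 on the AAV-αSyn arrays and 30.5 to 38 on the AAV-Null arrays, and the *Lbx1* spot reached no more than 41 on any array.

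The authors' processed intensity, which the image software corrects for background over the whole array, separated the groups in the same way. It read 2.15, 2.67, 2.08 and 2.35 with AAV-Null against 29.9, 22.3, 43.2 and 27.6 with AAV-αSyn. The signal was between 7.67 and 8.70 times the software's own error estimate for AAV-αSyn, and from 0.994 to 1.21 times that estimate for AAV-Null. The software's weaker flag, for a signal significantly above background, was set on 2 of 4 AAV-Null arrays and 4 of 4 AAV-αSyn arrays.

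On the log2 scale after quantile normalization, the *Skor1* level was 1.25, 1.36, 1.07 and 1.07 in the controls. In the AAV-αSyn replicates it was 4.87, 4.72, 5.40 and 4.57. The groups did not overlap, and 3.21 log2 units lay between the highest AAV-Null and the lowest AAV-αSyn array. Within an array, the *Skor1* probe stood at the 36.8 to 42.4 percentile of all probes in the AAV-αSyn group and at the 0.281 to 13.5 percentile in the AAV-Null group. A level above background was thus still in the dim part of the array.

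The *Skor1* log2 fold change was 3.70 (SE 0.178), from a control mean of 1.19 ± 0.145 (SD, n = 4) to an AAV-αSyn mean of 4.89 ± 0.363 (SD, n = 4). Its p-value from limma was 2.53e-08, and 0.000428 after Benjamini–Hochberg adjustment over the 33848 probes tested. It ranked 2 by p-value among those probes. Since the AAV-Null level was not well above background, the size is a bound. Set against the dimmest level that counted as well above background on the AAV-Null arrays (mean 3.12), *Skor1* with AAV-αSyn was at least 3.41-fold higher. With the signals of all arrays floored at that level the log2 fold change was 1.77 and the adjusted p was 0.165, and with normexp background correction it was 0.62 with an adjusted p of 0.0725.

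**Figure D2:**
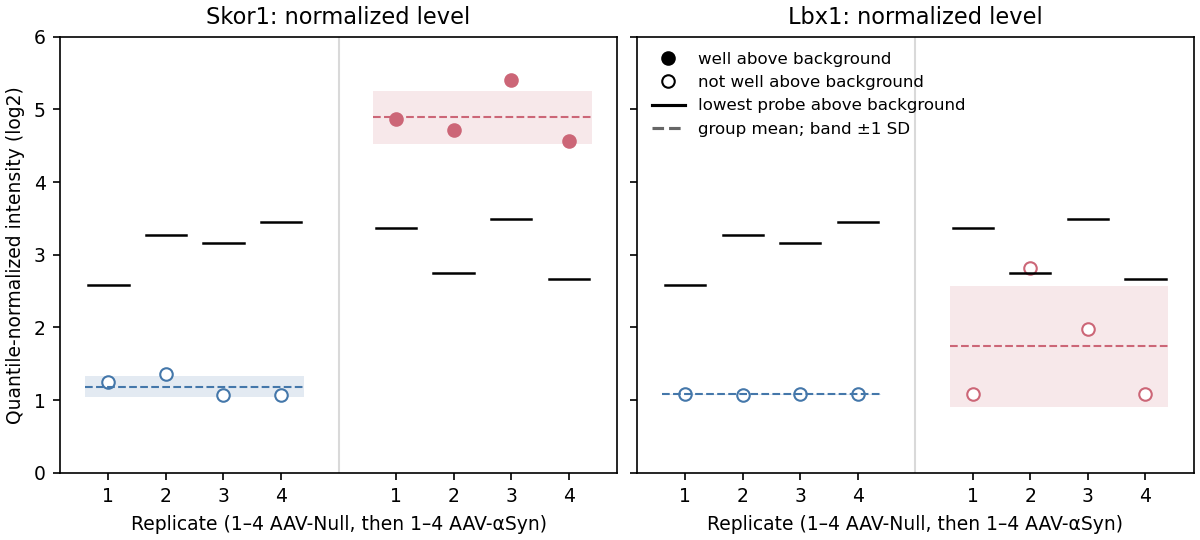
Quantile-normalized log2 intensity of the *Skor1* probe (left) and the *Lbx1* probe (right) on each array, filled where well above background, with the lowest level of any probe above background on that array as a black line. Dashed lines and bands give the group mean ± 1 SD. *Skor1* lies above the black line on the 4 AAV-αSyn arrays and below it on the 4 AAV-Null arrays.

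All 8 arrays lie on 1 slide, which holds them in 2 columns with 2 arrays of each group in each. The *Skor1* difference was 3.92 in one column and 3.49 in the other, and with the column as a block the adjusted p was 0.0019. The replicate number is the row of the slide, and with it as a replicate block the adjusted p was 0.0892, at which *Skor1* did not pass and 0 of all probes did. Leaving out any 1 array gave log2 fold changes between 3.53 and 3.81, with adjusted p between 0.000275 and 0.00821. The values without each array are shown in the plot of the *Skor1* fold change by processing.

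**Figure D3:**
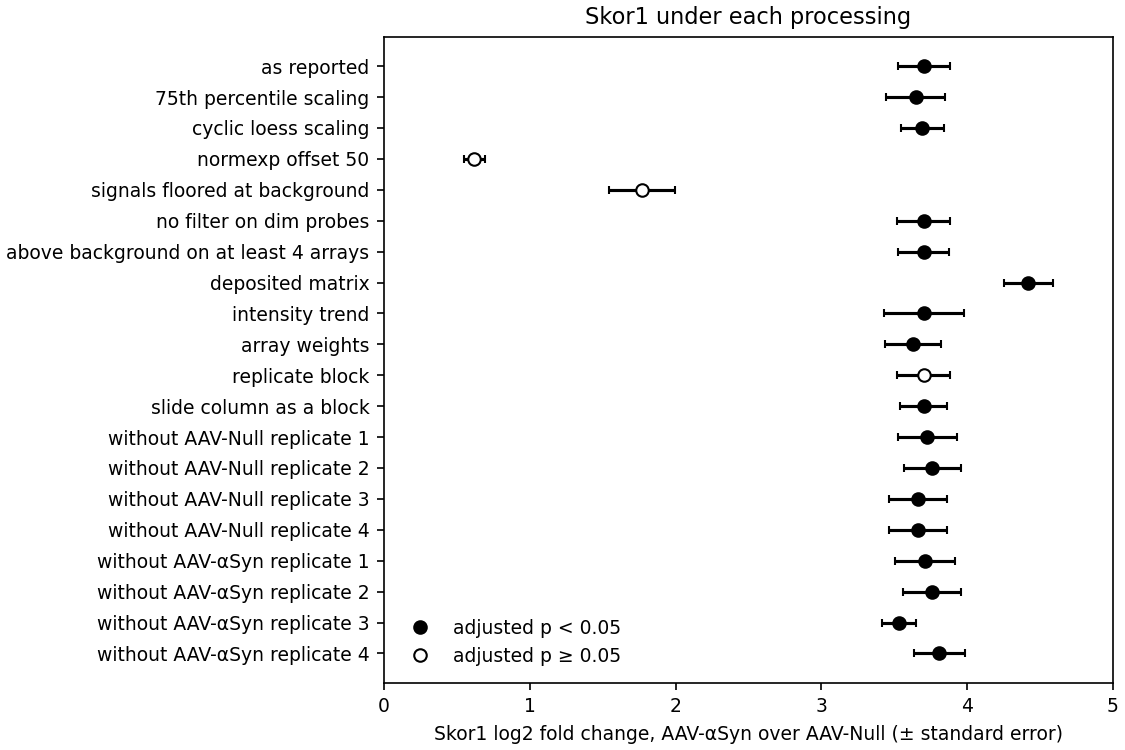
*Skor1* log2 fold change of AAV-αSyn over AAV-Null (points, with standard error) under each processing of the arrays and without each array in turn, filled where the adjusted p is under 0.05. All values are above 0, between 0.62 and 4.42, and 3 of them are open.

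*Lbx1* was not well above background on any of the 8 arrays, so it was not tested. Its spot read 33, 34, 34 and 33 with AAV-Null against 35, 40, 41 and 38 with AAV-αSyn, over a local background of 28 to 30.5. The weaker flag of the software was set on AAV-αSyn replicates 2 and 3 only. The normalized log2 level was 1.08 on each control array, and 1.08, 2.82, 1.98 and 1.08 with AAV-αSyn. On AAV-αSyn replicate 2 that level was above the lowest level of a probe that counted as above background on the same array (2.74), but the flag was not set for *Lbx1*. The group means differed by 0.66 on that scale, and by 0.45 and 0.87 within the columns of the slide, with no fold given since both groups were at background. The raw spots of the groups did not overlap (33 to 34 against 35 to 41), but no spot was well above background, so no statement on a change in *Lbx1* can be drawn from them.

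Of the 2 member probes, only the *Skor1* probe was tested, and it passed an adjusted p of 0.05. Over all probes tested, 0.0148% (5 probes) passed. The *Skor1* probe was chosen with its result known and was tested only because of its AAV-αSyn arrays. The member count therefore says nothing on the family against that share. Over all probes, 3.42% were higher and 2.27% lower in the AAV-αSyn group at an unadjusted p under 0.05. The arrays of the groups did not overlap at 2.6% of probes with AAV-αSyn above, and at 1.23% with AAV-αSyn below. *Skor1* was among the 0.0207% (7 probes) that were well above background on all AAV-αSyn arrays and on no AAV-Null array, while 0.00591% (2 probes) had the opposite pattern. Of the other 6, 3 have a symbol by accession and a log2 fold change above 1, and are named after their values were seen. They are *Nps*, which encodes neuropeptide S (at least 2.15-fold higher, adjusted p = 0.00132 by limma), *Uts2r*, the urotensin receptor gene (at least 3.25-fold, adjusted p = 0.147), and *LOC102556374* (at least 4.76-fold, adjusted p = 0.293). These folds are bounds set as for *Skor1*, with the probe's own AAV-Null level in place of the floor where that is higher, which gives a mean of 3.29 for *LOC102556374* and 3.12 for the others. As for *Skor1*, the adjusted p of *Nps* was above 0.05 with the floor (0.523), with normexp (0.225) and with the replicate block (0.124). The symbol *Mmp19*, for a matrix metalloproteinase, belongs to a probe with a log2 fold change of 0.47 whose groups overlapped.

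The probes whose levels followed the *Skor1* probe most closely over the 8 arrays were described by Pearson's r, which here mostly reflects the gap between the groups. The 8 points share 1 slide and 1 normalization. *Nps* came first, with r = 0.994. Its level was 1.22 to 1.27 over the controls, and 4.27, 3.75, 4.68 and 4.21 with AAV-αSyn. Its highest array was AAV-αSyn replicate 3, as for *Skor1*. *Krt73*, a keratin gene, had r = 0.959 and a log2 fold change of 1.15 (adjusted p = 0.0600). *Nfat5*, the tonicity-responsive transcription factor gene, had r = 0.954 with a log2 fold change of 0.24, and *Ppl*, which encodes periplakin, had r = 0.953 with 0.82. Neither of the last 2 passed the adjustment (adjusted p = 0.635 and 0.293).

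The genes next to *Skor1* did not share its pattern. On one side, *Pias1*, which encodes a SUMO ligase, had a log2 fold change of 0.05 and *Calml4*, a calmodulin-like gene, of -0.24. On the other, *Map2k5*, which encodes a kinase of the ERK pathway, had 0.03 and *C8h15orf61* had 0.18 (unadjusted p = 0.0704 by limma, adjusted p = 0.918). *Iqch* was above background on no array, and *Ppia-ps16* had no probe paired with its symbol. Beside *Lbx1*, *Sfxn3*, *Kazald1*, *Btrc*, *Poll* and *Dpcd* had log2 fold changes between -0.06 and 0.05 and *Tlx1* was above background on no array. None of the 9 neighbours tested had groups that did not overlap.

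The proteins that SKI and SKOR corepressors bind were measured through their transcripts, and none of these passed a test. All 8 SMAD genes listed were above background on all arrays, and none had an unadjusted p under 0.05 or groups that did not overlap. Their log2 fold changes lay between 0.02 and 0.21 with a median of 0.09, where the median of all probes tested was 0.01. The highest was *Smad3*, a transducer of TGFβ signals, at 0.21 (adjusted p = 0.927 by limma). *Smad7*, an inhibitory SMAD that BMP and TGFβ themselves induce, was at 0.16 (adjusted p = 0.961). Second probes of *Smad4* and *Smad5* gave -0.07 and -0.20, so the sign within the list depends on the probe.

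Of the 9 genes listed for the corepressor machinery, 6 were tested and none passed at an unadjusted p under 0.05. *Hdac1*, a histone deacetylase gene, had the lowest value at -0.16 (adjusted p = 0.961), and the list's median was 0.01. The 5 ubiquitin ligase genes listed for the turnover of SKI, SKIL or SMADs (*Rnf111*, *Rnf165*, *Smurf1*, *Smurf2* and *Fzr1*) had a median of -0.02, and none of them passed either. Among the 11 transcripts listed as induced by BMP or TGFβ, 10 were tested, none passed at an unadjusted p under 0.05, and the median was -0.05. *Id1*, an early BMP target, averaged 9.67 ± 0.057 (SD, n = 4) with AAV-αSyn and 9.77 ± 0.17 (SD, n = 4) with AAV-Null. Its difference of -0.10 was smaller than the spread of the AAV-Null arrays. *Atoh8* was the lowest of the list at -0.48, with overlapping groups.

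Genes of the EYA and sine oculis families, the partners of DACH proteins, had 5 of 8 members tested. *Eya4* had a log2 fold change of 0.24 (unadjusted p = 0.0344 by limma, adjusted p = 0.841) with groups that did not overlap, and *Six4* of 0.39 (unadjusted p = 0.0269, adjusted p = 0.822) with groups that did. Other probes of *Eya4* gave 0.35 and 0.04. Its unadjusted p was above 0.05 in 5 of 12 processings and without any 1 of AAV-Null replicates 1 to 3 or AAV-αSyn replicates 2 and 3, and with normexp its log2 fold change was 0.11. For *Six4*, the unadjusted p was above 0.05 in 4 of 8 fits with 1 array left out. Neither *Eya4* nor *Six4* passed the adjustment.

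**Figure D4:**
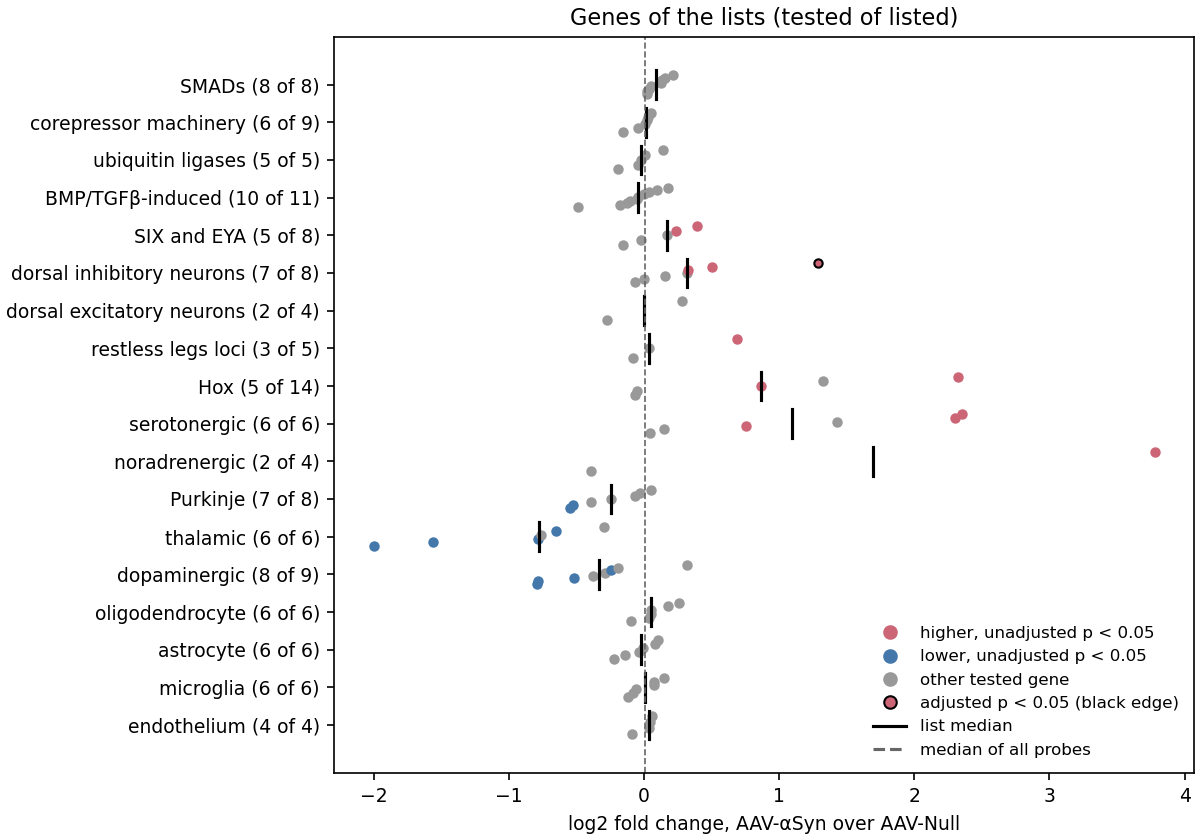
Log2 fold change of AAV-αSyn over AAV-Null for each tested gene of the lists (points, 1 per gene), with the list's median as a vertical line and the median of all probes dashed. Points are coloured where the unadjusted p is under 0.05, and *Slc6a5*, at 1.28, has a black edge for an adjusted p under 0.05. SMAD and corepressor lists lie near 0, with medians of 0.09 and 0.01, and *Dbh* and *Hoxa4*, at background with AAV-Null, are drawn at fitted values that are no bounds.

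Genes of the neurons in which SKOR1 and LBX1 are known from development were described next. Of 8 genes listed for inhibitory neurons of the dorsal hindbrain and spinal cord, 7 were above background on all arrays, and *Ptf1a*, a defining transcription factor, was above background on none. *Slc6a5*, the glycine transporter gene of glycinergic neurons, passed the adjustment as fitted here, but in only 8 of 20 alternatives. Its level was 7.69, 7.84, 7.84 and 8.0 in the controls and 9.11, 9.45, 8.98 and 8.97 with AAV-αSyn, a log2 fold change of 1.28 (adjusted p = 0.0422 by limma). Its groups did not overlap. Without 1 array the adjusted p was between 0.0493 and 0.198, and it stayed under 0.05 only without AAV-αSyn replicate 2. It was 0.0583 with cyclic loess, 0.0592 in the deposited matrix, 0.0821 with no filter on dim probes, 0.0945 with the slide column as a block and 0.42 with the replicate block. *Pax8* (0.50) and *Lhx5* (0.33), both transcription factor genes of such neurons, had unadjusted p of 0.0192 and 0.0261 and did not pass the adjustment (0.776 and 0.820). With 1 array left out, the unadjusted p was above 0.05 in 3 of 8 fits for *Pax8* and in 5 of 8 for *Lhx5*. For *Pax8* it was 0.0517 by limma with the replicate block. With array weights *Lhx5* was at 0.155 (unadjusted p = 0.189 by limma). *Slc32a1*, the vesicular transporter gene that all GABAergic and glycinergic neurons use, was at -0.07. The list's mean log2 level, which includes *Slc6a5*, was 6.97 to 7.26 in the AAV-Null group and 7.29 to 7.52 in the AAV-αSyn group. Its part in the *Skor1* difference was not tested. Of 4 transcription factor genes listed for excitatory neurons of the same region, 2 were tested and neither had an unadjusted p under 0.05 (*Lmx1b* -0.27, *Prrxl1* 0.28).

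*Skor1* and *Map2k5* lie together at a locus associated with restless legs syndrome, and 5 genes of such loci were listed. Of these, 3 were tested. *Meis1*, a homeodomain gene and another of those loci, had levels of 8.41, 8.39, 8.07 and 8.15 in the controls and of 8.85, 9.04, 8.92 and 8.95 with AAV-αSyn. The groups did not overlap, and its log2 fold change of 0.69 had an unadjusted p of 0.000125 by limma and an adjusted p of 0.265. *Btbd9* was at -0.08 and *Map2k5* at 0.03.

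Markers of neurons outside the SN are given here beside *Skor1*, and none of those listed for serotonergic, noradrenergic or thalamic neurons or among the Hox genes passed the adjustment. The 6 serotonergic genes listed had a median log2 fold change of 1.09, and 3 of them had an unadjusted p under 0.05. These were *Tph2*, the tryptophan hydroxylase gene of serotonergic neurons (2.35), *Slc6a4*, the serotonin transporter gene (2.30), and *Htr5b* (0.76). For *Htr5b* the unadjusted p was above 0.05 in 5 of 8 fits with 1 array left out. With the replicate block it was 0.0738 by limma. None of the 6 passed the adjustment or had groups that did not overlap. The mean log2 level of the list was 6.31, 6.50, 8.19 and 6.66 in the controls and 7.89, 8.33, 7.55 and 8.57 with AAV-αSyn. AAV-Null replicate 3 was thus above AAV-αSyn replicates 1 and 3 for this list, with *Skor1* at background on that AAV-Null array (1.07).

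*Dbh*, the dopamine β-hydroxylase gene of noradrenergic neurons, had levels of 2.18, 1.32, 1.55 and 2.11 in the controls and of 1.32, 6.27, 7.30 and 7.38 with AAV-αSyn. It was above background on 0 of 4 AAV-Null and 3 of 4 AAV-αSyn arrays and was at least 5.46-fold higher in the mean with AAV-αSyn (3.59- to 14.6-fold without 1 array, the highest without AAV-αSyn replicate 1 and the lowest without replicate 4; unadjusted p = 0.0164 by limma, adjusted p = 0.765), with groups that overlapped. Without AAV-αSyn replicate 1 the adjusted p was 0.00937. AAV-αSyn replicate 1 was at background for *Dbh*, where *Skor1* was at 4.87. Of the 3 other genes of that list, *Slc6a2*, the noradrenaline transporter gene, was tested but was above background on only 2 of 4 AAV-Null and 1 of 4 AAV-αSyn arrays, and its groups overlapped. Of 14 Hox genes, which mark the hindbrain and spinal cord, 5 were tested. *Hoxa2* and *Hoxa4* had groups that did not overlap and unadjusted p of 0.00953 and 0.0111, and neither passed the adjustment (0.716 and 0.737). The log2 fold change of *Hoxa2* was 0.87, and its second probe, above background on 0 of 4 AAV-Null and 3 of 4 AAV-αSyn arrays, was at least 1.35-fold higher with AAV-αSyn. *Hoxa4* was above background on 0 of 4 AAV-Null and 2 of 4 AAV-αSyn arrays, with levels of 1.21 to 1.22 in the controls and of 2.60, 4.23, 5.50 and 1.83 with AAV-αSyn. No fold is given, since without AAV-αSyn replicate 3 the mean was below the floor, and with signals floored at background its unadjusted p was 0.165. The groups of the other 3 overlapped, with *Hoxd3* at -0.05. *Hoxb3* was above background on 0 of 4 AAV-Null and 2 of 4 AAV-αSyn arrays, and *Hoxb5* on 0 and 1, so no fold is given for them. No Hox gene was above background on all 8 arrays. The mean level of the 5 was 2.79 to 2.97 over the controls, and 3.25, 4.20, 4.49 and 3.14 with AAV-αSyn. The part of these markers in the *Skor1* difference was not tested.

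**Figure D5:**
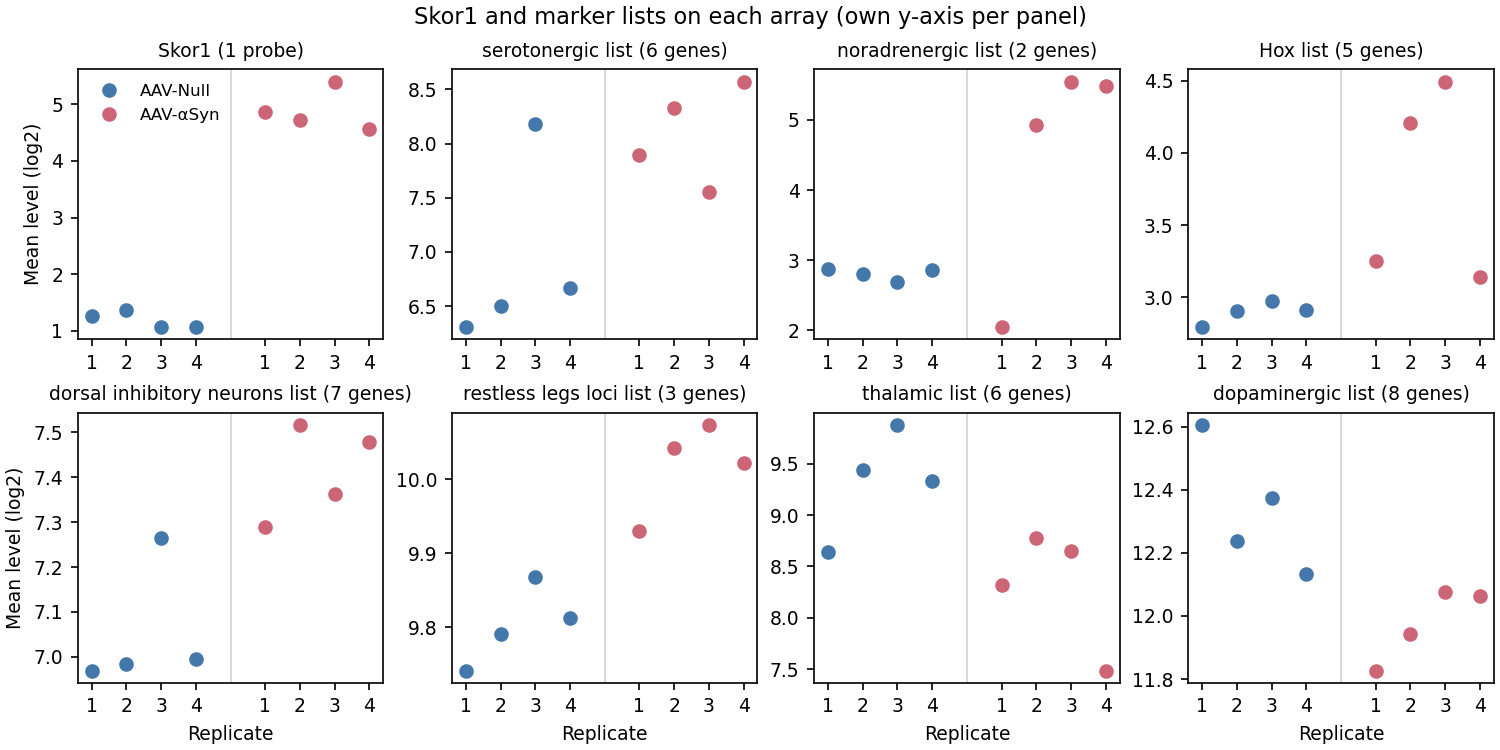
Log2 level of *Skor1* and mean log2 level of 7 marker lists on each array (replicates 1 to 4 of AAV-Null, then of AAV-αSyn), each panel with its own y-axis, which does not start at 0. AAV-αSyn replicate 1 is lowest of all arrays for the noradrenergic list (2.05) with *Skor1* at 4.87, and AAV-Null replicate 3 is at 8.19 for the serotonergic list with *Skor1* at 1.07. The Hox list is at 2.79 to 2.97 with AAV-Null and 3.14 to 4.49 with AAV-αSyn, highest on replicate 3, as for *Skor1*. The dorsal inhibitory list is at 6.97 to 7.26 with AAV-Null and 7.29 to 7.52 with AAV-αSyn. The part of any list in the *Skor1* difference was not tested.

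Purkinje cell genes, another neuron type in which the SKOR family is expressed, had 7 of 8 members tested and a median of -0.24. *Itpr1* (-0.55) and *Foxp2* (-0.52) had groups that did not overlap and unadjusted p of 0.00149 and 0.0100, with adjusted p of 0.543 and 0.716. The 2 granule cell genes listed, *Gabra6* and *Cbln3*, were above background on no array. All 6 thalamic genes listed were at lower means in the AAV-αSyn group, with a median of -0.77 and overlapping groups for each. *Gbx2* (-2.0), *Prkcd* (-1.56), *Rgs16* (-0.79) and *Plekhg1* (-0.65) had an unadjusted p under 0.05 by limma and none passed the adjustment. The level of *Gbx2* was 5.71 in AAV-αSyn replicate 4, against 8.69 to 9.89 in the rest of that group, and without that array its log2 fold change was -1.09. Its unadjusted p was above 0.05 without any 1 of the AAV-Null arrays and without AAV-αSyn replicate 1 (0.0514 to 0.116). With 1 array left out, that p was above 0.05 in 4 of 8 fits for *Rgs16*, 4 of 8 for *Plekhg1* and 3 of 8 for *Prkcd*.

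Dopaminergic genes, which define the labelled tissue, were above background on all 8 arrays in 8 of 9 cases, the ninth having no probe paired with it, and their median log2 fold change was -0.33. Of the 8, 7 had a lower mean with AAV-αSyn, and *En2*, an engrailed homeobox gene, was at 0.32 with overlapping groups. *Th*, the tyrosine hydroxylase gene, had a log2 fold change of -0.52, with means of 15.97 ± 0.056 (SD, n = 4) for AAV-αSyn and 16.49 ± 0.17 (SD, n = 4) for AAV-Null, groups that did not overlap and an adjusted p of 0.477 by limma. *Ddc* (-0.25), *Slc6a3* (-0.79) and *Pitx3* (-0.78) also had an unadjusted p under 0.05 and did not pass the adjustment. Other probes of *Ddc* gave -0.30 and -0.23, with unadjusted p of 0.0912 and 0.145 by limma. The *Ddc* probe used had an unadjusted p above 0.05 in 4 of 8 fits with 1 array left out. With the replicate block its unadjusted p was 0.0636 by limma. In a dissected tissue, fewer cells of a type and less RNA per cell cannot be told apart, and the same holds for more cells and more RNA in the case of *Skor1*. Of the genes listed for oligodendrocytes, astrocytes, microglia and endothelium, none had an unadjusted p under 0.05.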

How the data were processed

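RNA of the injected-side SN was measured on 8 arrays, 4 per group. The authors deposited scanner files with each spot's intensity in arbitrary units, background-corrected within the array by Agilent Feature Extraction (11.5.1.1 in the submitters' processing notes, 12.0.3.2 in the file headers), and a deposited matrix of log2 values after quantile normalization. Between 68.0% and 71.4% of probes were well above background per array. From the scanner files, control and outlier spots were left out, and processed intensities were taken to log2, quantile normalized and averaged per probe. Probes with at least 0.5 of their spots well above background on at least 1 array were compared by limma 3.58.1 (lmFit and eBayes, R 4.3.3), two-sided, with Benjamini–Hochberg adjustment over 33848 probes and a threshold of 0.05. The number of arrays limits the precision.

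The accession table named 21229 of 45598 probes. Named genes were all member probes, the listed genes (those past an unadjusted p of 0.05 or without overlap first), 3 neighbours on each side of a member and the 5 probes most like *Skor1*. A gene with several probes was represented by its brightest. The members, lists and tests were chosen with earlier results of these data known. Some genes that the rule selects are not reported here. Alternatives were other scalings (75th percentile, cyclic loess), normexp with an offset of 50, a floor at background, other filters, the deposited matrix, an intensity trend, array weights, the replicate number or slide column as a block, and each array left out. The procedure was also run on simulated data, and no result given here rests on that run. Behaviour, immunostaining, PCR array and cell culture were not analysed here.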

Additional observations from a re-analysis of the deposited data

Results flagged for a closer look

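In 2 of the 56 groups of 4 arrays examined among the named genes, 1 array stood far from the other 3 by Dixon's ratio of the gap to the range, and chance gives about 2.8. Both are AAV-Null groups. *Htr5b* was at 6.14, 6.20, 7.12 and 6.05 on AAV-Null replicates 1 to 4, with replicate 3 highest and a ratio of 0.853. *Itpr1* was at 11.97, 11.89, 11.90 and 12.37, with replicate 4 highest and a ratio of 0.849. Neither group of *Skor1* or *Lbx1* stood out in this way.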

How the results depend on the processing

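The *Skor1* difference kept its direction, higher with AAV-αSyn, under each processing in which the probe was tested. Its log2 fold change was 0.62 with normexp (adjusted p = 0.0725), where 50 is added to every signal, 1.77 with signals floored at background (adjusted p = 0.165) and 3.70 with the replicate block (adjusted p = 0.0892). It was 4.42 in the deposited matrix, and 3.53 to 3.81 with 1 array left out. It could not be tested with the filter of all 8 arrays, which needs a level above background on each of them. The count of member probes past the adjustment, 1 as reported, was 0 under these 3 settings and under that filter, and 1 with any 1 array left out. The count over all probes was 5 as reported, 3 with the floor, 9 with array weights, 0 with the replicate block (2207 at an unadjusted p under 0.05 by limma) and 3 to 5 with 1 array left out, 3 without any 1 of the 4 AAV-Null arrays. The cause of these changes was not tested beyond what is stated.

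The replicate numbers are the rows of the slide, and whether they also pair the arrays was not settled by these data. The correlations of deviations of same-numbered arrays were 0.15, 0.26, 0.04 and -0.0043, and 4 of 8 arrays correlated best with their own number. The difference of *Lbx1*, not tested, moved from 0.66 to -0.03 with the floor. *Nps* and *Slc6a5*, which passed the adjustment, kept direction and call in 24 of 39 alternatives and lost the call in 15. For 24 genes that were named for an unadjusted p under 0.05, groups that did not overlap or likeness to *Skor1*, 419 of 474 values kept their direction and their side of an unadjusted p of 0.05, 55 kept the direction and lost that p, and 0 reversed. Signal over background limits *Skor1* to a lower bound and leaves *Lbx1* unmeasured.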
